A study of Mus musculus with 4 samples.

Results

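The chemokines and chemokine receptors of helper T cells described here are 10 genes among the 23480 gene identifiers measured in each library. They are 4 ligand genes, Ccl17, Ccl22, Ccl20 and Ccl5, and 6 receptor genes, Ccr4, Ccr7, Ccr8, Cxcr3, Cxcr4 and Cxcr6, taken by symbol from a fixed list after the Entrez identifiers had been matched to mouse symbols. All 10 were found. RNA came from mouse T cells cultured under Th9 conditions, without any further factor named (2 libraries, written Th9), or under the same conditions with TLA1 added (2 libraries, written Th9+TLA1). TLA1 is the spelling of the labels. It is read here as TL1A, the cytokine of the TNF superfamily that the series title names. The labels name no strain, age or culture time, and nothing in them says that replicates were separate animals or cultures. P-values therefore reflect spread among 4 libraries that may be only technical. Deposited names of the libraries carry codes, some shared between libraries and some not, that the labels do not explain. These codes were not used as a batch, so any effect tied to them was not separated from that of TLA1. With 4 libraries it may not be separable.

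Chemokines are small secreted proteins that guide cell movement along gradients, and their receptors are G protein-coupled proteins of the cell surface. Helper T cell types are known for carrying different receptors: CCR4 and CCR8 are associated with type 2 and regulatory cells, CXCR3 with type 1 cells, CCR6 with type 17 cells, and CCR7 with entry into lymph nodes. CCL17 and CCL22 are the ligands of CCR4, CCL20 is the ligand of CCR6, and CCL5 attracts T cells and monocytes.

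Reads counted in genes came to between 2979482 and 4041633 per library, and 3 reads, the limit that a count of 0 allows, were worth 0.742 to 1.01 CPM (reads scaled to a total of 1000000 per library). The markers of T cells were present in all 4 libraries, with reads for 7 of 7 genes and a summed level of 2623 and 3057 CPM without TLA1 and 3405 and 3283 CPM with it. Cd4 had between 457 and 520.2 CPM. Cd8a had at most 5 reads in any library and Cd8b1 between 27 and 42. RNA of mixed cells cannot tell fewer cells of a type from less RNA per cell. Libraries were also compared gene by gene with limma on log2(CPM + 1), in which a fold change understates the change of low genes, and calls were made at 0.05 after Benjamini-Hochberg adjustment across 10324 genes.

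The comparison asked which chemokine and receptor genes differed when TLA1 was present. Ccl22 and Ccl17 had the highest fold changes among the tested members in this fit, 4.40-fold and 3.90-fold, followed by Cxcr4 and Ccl5, while the abundant receptor genes Ccr7, Ccr4 and Ccr8 differed by 1.64-fold higher, 1.17-fold higher and 1.19-fold lower. None of these differences passed the limma test. The order depended on the libraries: without Th9+TLA1 replicate 2 the log2 fold change of Ccl17 (1.32) was below those of Cxcr4 (1.78) and Ccl5 (1.35), and without Th9 replicate 2 that of Ccl22 (1.84) was below that of Cxcr4 (2.05). Of the 10 members, 7 passed the filter on low values and were tested with limma, and 0 were called, where 1.14% of all tested genes were called. At an unadjusted limma p under 0.05 there were 4, Ccl17, Ccl22, Ccr7 and Cxcr4, where 16.7% of all tested genes had such a p. The edgeR quasi-likelihood test on reads recovered from the CPM called 0 of the 7 (1.07% of all genes). DESeq2 called 2 of the 5 members to which it gave an adjusted p, Ccl22 and Ccr7 (3.23% of all genes to which it gave one). In both of these tests Ccl17 had a larger log2 fold change than Ccl22, 2.63 against 2.39 in edgeR and 2.66 against 2.42 in DESeq2. The order of the 2 genes thus depended on the test as well. Both Th9+TLA1 libraries lay above both Th9 libraries in 5 of the 10 members (17.0% of the genes with at least 1 read) and below them in 2 (24.7%).

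**Figure D1:**
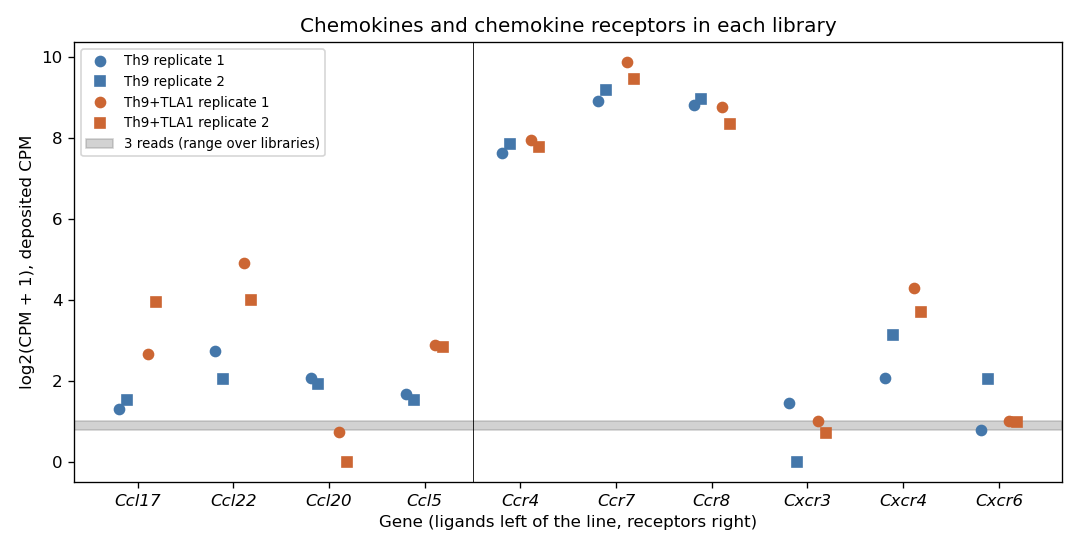
Level of each of the 10 genes in each of the 4 libraries as log2(CPM + 1) of the deposited CPM (circles, replicate 1; squares, replicate 2; blue, Th9; orange, Th9+TLA1); the grey band is the value of 3 reads, 0.742 to 1.01 CPM. Ccr4, Ccr7 and Ccr8 lie far above the other 7. Cxcr3, Cxcr6 and, with TLA1, Ccl20 have values in or below the band, while Cxcr6 in Th9 replicate 2 (3.16 CPM) lies above it.

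The filter kept genes with at least 3.20 CPM in at least 2 libraries. Ccl17 and Ccl5 passed it only through the Th9+TLA1 libraries, and Ccl22 had only 1 Th9 library above it, so a difference in that direction was partly set by the filter. Ccl20, with 1 Th9 library above it and none with TLA1, did not pass. Cxcr3 and Cxcr6 did not pass either, with no library at that level. A count over the tested members is therefore a description of those genes and not of all 10.

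Among the ligands, Ccl17 and Ccl22 lie near each other on chromosome 8 of mm10. Ccl22 (Entrez 20299) spans 94745684 to 94751388 and Ccl17 (Entrez 20295) 94809380 to 94812038, with 57991 bases between them, and Cx3cl1, the gene of the chemokine fractalkine, is the protein-coding gene in between in RefSeq's annotation. Their promoter windows, 250 bases before to 50 bases after the start that RefSeq lists for GRCm38.p6, are shown because the 2 genes are neighbours and encode ligands of the same receptor. Those of Ccl20, the ligand gene with the opposite direction, and of Ccr4, the receptor gene of CCL17 and CCL22, are shown for comparison. Capitals mark matches, on either strand, to 5 motifs. For AP-1, the kind of site that BATF proteins bind together with JUN partners, the letters searched were TGANTCA. For STAT proteins they were TTCNNNGAA and the same motif with 1 more N. For GATA proteins, a family that includes the type 2 lineage factor GATA3, they were AGATAA. The NF-kB consensus was also searched.
Ccl17: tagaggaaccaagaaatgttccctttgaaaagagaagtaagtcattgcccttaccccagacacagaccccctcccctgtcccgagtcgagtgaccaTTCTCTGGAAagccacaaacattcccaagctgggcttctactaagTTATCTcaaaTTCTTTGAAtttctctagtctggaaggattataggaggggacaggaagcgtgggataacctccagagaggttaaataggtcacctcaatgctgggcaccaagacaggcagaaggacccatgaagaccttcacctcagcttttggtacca
Ccl22: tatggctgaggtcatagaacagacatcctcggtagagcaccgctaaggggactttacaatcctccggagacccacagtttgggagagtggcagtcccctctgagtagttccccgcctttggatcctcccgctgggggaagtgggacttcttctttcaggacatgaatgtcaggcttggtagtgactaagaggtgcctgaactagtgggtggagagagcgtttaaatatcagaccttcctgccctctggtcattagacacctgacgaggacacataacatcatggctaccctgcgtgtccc
Ccl20: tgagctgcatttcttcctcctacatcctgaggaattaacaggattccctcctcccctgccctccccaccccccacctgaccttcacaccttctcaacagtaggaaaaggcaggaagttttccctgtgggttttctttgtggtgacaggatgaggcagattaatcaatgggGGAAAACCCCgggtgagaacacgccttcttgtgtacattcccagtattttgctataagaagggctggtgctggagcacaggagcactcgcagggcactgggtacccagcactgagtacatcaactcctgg
Ccr4: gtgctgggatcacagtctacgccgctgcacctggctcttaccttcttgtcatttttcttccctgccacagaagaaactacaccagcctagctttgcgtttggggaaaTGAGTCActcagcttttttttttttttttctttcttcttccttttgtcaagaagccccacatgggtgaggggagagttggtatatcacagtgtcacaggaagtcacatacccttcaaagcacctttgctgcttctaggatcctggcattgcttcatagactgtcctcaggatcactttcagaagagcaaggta

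The windows are chr8:94810203-94810502 (plus strand) for Ccl17, chr8:94745434-94745733 (plus strand) for Ccl22, chr1:83116516-83116815 (plus strand) for Ccl20 and chr9:114496495-114496794 (minus strand) for Ccr4. The Ccl17 window held a 4-base-spacer STAT match 154 to 145 bases before the start, a GATA match at 109 to 104 and a 3-base-spacer STAT match at 99 to 91, none overlapping another. The Ccl22 window held no match to any of the 5 motifs. In the Ccl20 window an NF-kB match lay 80 to 71 bases before the start, and in the Ccr4 window an AP-1 match at 143 to 137. Such letters were common: of 32841 promoter windows of this length, 7.81% held the AP-1 letters, 8.30% and 6.95% the STAT letters with 3 and 4 bases between, 11.2% the GATA letters and 8.46% the NF-kB consensus. Windows for 8 of the 10 members were found, and 4 of the 8 held a match, the other being a GATA match in the window of Ccr8. The starts that this table uses for Ccl17 and Ccr4 lie 1073 and 8932 bases inside the gene spans given here, so these 2 windows do not lie before the outermost start of the gene. A match describes letters and does not show that a protein binds there.

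Ccl22 had 5.69 and 3.16 CPM without TLA1 (23 and 10 reads) and 29.2 and 14.9 CPM with it (87 and 46 reads). Both libraries with TLA1 lay above both without it, and replicate 1 was the higher in each group. The means were 4.42 ± 1.79 and 22.1 ± 10.1 CPM (SD, n = 2 libraries per group), with a log2 fold change of 2.14 ± 0.54 (SE, 95% interval 0.95 to 3.32) and a limma adjusted p of 0.0936. DESeq2 on the recovered reads called it (adjusted p = 0.0176), as did edgeR without a filter (0.00227), which called 4.05% of the genes with at least 1 read. Over all alternatives its adjusted p lay between 0.00227 and 0.453, and its log2 fold change between 1.67 and 2.61. Without Th9+TLA1 replicate 2 limma called it on the same genes (0.0440), and not when the filter was run again (0.0993).

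Ccl17 had 1.48 and 1.89 CPM without TLA1 (6 reads in each library) and 5.37 and 14.6 CPM with it (16 and 45 reads). The groups did not overlap, but the libraries with TLA1 differed from each other 2.72-fold, and here replicate 2 was the higher, the reverse of Ccl22. Its means were 1.69 ± 0.290 and 9.99 ± 6.53 CPM (SD, n = 2 per group), and its log2 fold change of 1.96 ± 0.69 (SE, 95% interval 0.45 to 3.48) did not pass (limma adjusted p = 0.193). It lay between 1.32 and 2.61 with 1 library left out. The summed level of the 2 CCR4 ligand genes was 7.18 and 5.05 CPM without and 34.6 and 29.5 CPM with TLA1. With TLA1 the sum varied less between replicates than either gene, which follows from their opposite replicate orders. Without TLA1 the sum varied more than Ccl17 did. It is given as a description only. Cx3cl1 had 0, 1, 12 and 0 reads in Th9 replicates 1 and 2 and Th9+TLA1 replicates 1 and 2, so its reads came almost wholly from a single library. The 6 tested neighbours of Ccl17 or Ccl22 within 100000 bases, members aside, had log2 fold changes between -0.36 and 0.24, none called in limma (lowest adjusted p 0.673).

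Dendritic cells and macrophages are well-known sources of CCL17 and CCL22. Of 12 markers of those cells, Clec9a, Csf1r, Lyz2 and Cd14 had 0 reads in all 4 libraries, Ciita had at most 2 reads and Itgax, which encodes CD11c, had 5 reads in Th9+TLA1 replicate 1 and 0 elsewhere. Cd68 had 4 and 5 reads without and 23 and 14 reads with TLA1, and Zbtb46, a factor of classical dendritic cells, had 22 and 9 reads without and 36 and 22 reads with it. Flt3, a receptor gene of dendritic cell precursors, had 1 and 0 reads without and 5 and 5 with it, and Adgre1, which encodes the macrophage antigen F4/80, went the other way with 8 and 1 reads without and 0 in both libraries with TLA1. H2-Ab1, a class II histocompatibility gene, was above in both libraries with TLA1, and Cd74 overlapped. The summed level of the 12 was 229 and 290 CPM without and 354 and 288 CPM with TLA1, most of it from Cd74 and H2-Ab1. Among 5 markers of B cells, Ms4a1 and Pax5 had 0 reads in all 4 libraries and Cd79a had 17 and 0 reads without and 10 and 2 with TLA1. Cd79b, which encodes a chain of the B cell receptor complex, had 25 and 41 reads without and 72 and 88 with TLA1 (limma log2 fold change 1.53 ± 0.47 SE, adjusted p = 0.144). The summed level of the 5 was 10.4 and 12.9 CPM without and 28.9 and 29.2 CPM with TLA1. No marker of either list was called in limma, and their part in the levels of Ccl17 and Ccl22 was not tested.

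Ccl5 (Entrez 20304, chromosome 11, 83525778 to 83530518), the gene of RANTES, had 2.23 and 1.89 CPM without TLA1 (9 and 6 reads) and 6.38 and 6.17 CPM with it (19 reads in each library). The groups did not overlap and replicates lay close together. At these read numbers its log2 fold change of 1.32 ± 0.66 (SE, 95% interval -0.12 to 2.76) did not pass (limma adjusted p = 0.346).

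Ccl20 (Entrez 20297, chromosome 1, 83116766 to 83119167) was the ligand gene with the opposite direction. It had 3.22 and 2.84 CPM without TLA1 (13 and 9 reads), while Th9+TLA1 replicate 1 had 2 reads (0.671 CPM) and Th9+TLA1 replicate 2 had 0. Both values with TLA1 were under 3 reads. With the reads of each group added together, 22 against 2, the level was 9.25-fold lower with TLA1, with a 95% interval of 2.27 to 81.1 that covers counting error only. Without a filter on low values limma gave a log2 fold change of -1.59 ± 0.52 (SE) and an adjusted p of 0.240, and edgeR an adjusted p of 0.498. Ccr6, the CCL20 receptor gene, had 11.1 and 6.95 CPM without and 7.38 and 5.84 CPM with TLA1, overlapping groups with a log2 fold change of -0.29 ± 0.55 (limma adjusted p = 0.843).

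Receptor transcripts were dominated by 3 genes. Ccr4, Ccr7 and Ccr8 gave between 98.7% and 99.5% of the summed CPM of the 6 receptor members in every library. Their sum was 1135 and 1313 CPM without and 1625 and 1254 CPM with TLA1, so the groups overlapped. The 4 ligand genes summed to 12.6 and 9.79 CPM without and 41.6 and 35.7 CPM with TLA1.

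Ccr7 (Entrez 12775, chromosome 11, 99144199 to 99155077), which encodes the receptor for the lymph node chemokines CCL19 and CCL21, had 482 and 581 CPM without TLA1 and 940.1 and 708 CPM with it. Both libraries with TLA1 were above both without it. The means of 531 ± 70.4 and 824 ± 164 CPM (SD, n = 2 per group) gave a log2 fold change of 0.72 ± 0.20 (SE, 95% interval 0.28 to 1.15; limma adjusted p = 0.122). DESeq2 called it (adjusted p = 0.0235), as did edgeR without a filter (0.00944). Over all alternatives its adjusted p lay between 0.00944 and 0.583. Without Th9 replicate 2 limma called it on the same genes (0.0357), and not when the filter was run again (0.162). Its ligand genes Ccl19 and Ccl21a had 0 reads in all 4 libraries.

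Ccr8 (Entrez 12776, chromosome 9, 120092133 to 120094906), a receptor gene of type 2 and regulatory T cells, had 456 and 501 CPM without TLA1 and 436 and 327 CPM with it. The groups did not overlap, but the gap between them was smaller than the gap between the 2 libraries with TLA1. Its log2 fold change was -0.25 ± 0.19 (SE, 95% interval -0.67 to 0.17; limma adjusted p = 0.565), and ranged from -0.46 without Th9+TLA1 replicate 1 to -0.03 without Th9+TLA1 replicate 2. Ccl1 and Ccl8, its ligand genes in the mouse, had 0 reads throughout.

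Ccr4 (Entrez 12773, chromosome 9, 114490316 to 114505476), the receptor gene for CCL17 and CCL22, had 197 and 230.5 CPM without and 249 and 219 CPM with TLA1. These groups overlapped. Its log2 fold change of 0.22 ± 0.19 (SE, 95% interval -0.19 to 0.64; limma adjusted p = 0.606) leaves room for a level up to 0.64 higher or 0.19 lower on the log2 scale.

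**Figure D2:**
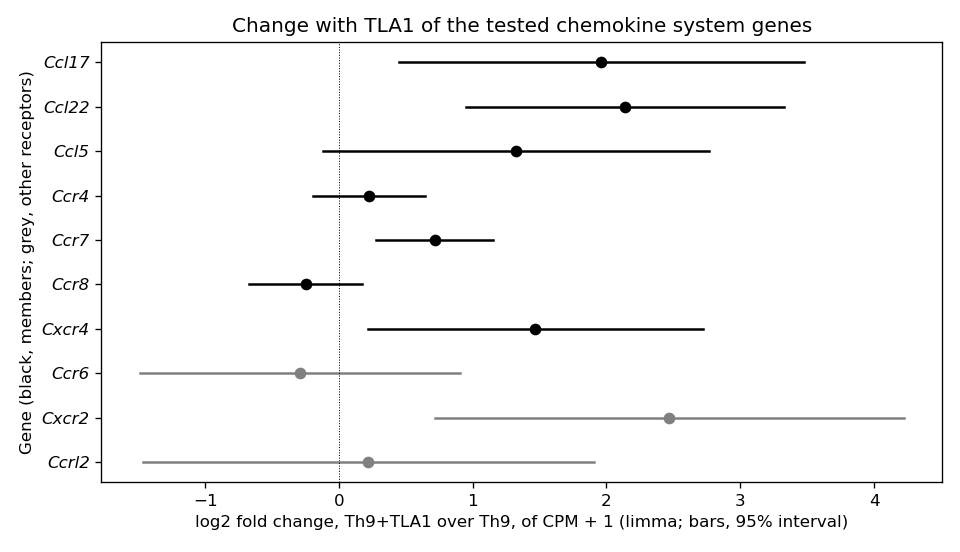
Log2 fold change of CPM + 1, Th9+TLA1 over Th9, from limma with its 95% interval (n = 2 libraries per group), for the 7 tested members (black) and the 3 tested other receptor genes (grey). The intervals of Ccl17, Ccl22, Ccr7, Cxcr4 and Cxcr2 lie above 0, and no gene passed the adjusted threshold.

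Levels of different genes were set side by side per kilobase of annotated exon (GENCODE M21 on GRCm38). In the Th9 libraries Ccr8 was the highest at 407 ± 27.0 CPM per kb, then Ccr7 at 269 ± 35.6 and Ccr4 at 69.1 ± 7.72 (SD, n = 2), and no value of these 3 overlapped another gene's. With TLA1 the means stood in the order Ccr7 at 417 ± 82.9, Ccr8 at 325 ± 65.1 and Ccr4 at 75.7 CPM per kb, with Ccr4 values of 80.6 and 70.7 in the 2 libraries. Across libraries the Ccr7 values of 475 and 358 and the Ccr8 values of 371 and 279 CPM per kb then overlapped, although Ccr7 was the higher in each library. The 7 other members had at most 3.29 CPM per kb on average without TLA1. With it Ccl17 came next at 19.4 ± 12.7 CPM per kb, then Ccl22 at 9.49 ± 4.34, Cxcr4 at 8.52 ± 2.65 and Ccl5 at 6.53 ± 0.155, and all neighbours in that order overlapped.

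Within a library, the ratio of Ccr7 to Ccr8 CPM does not depend on the scaling between libraries. It was 1.06 and 1.16 in the Th9 libraries and 2.16 in each Th9+TLA1 library. The ratio of Ccr7 to Ccr4 was 2.45 and 2.52 without and 3.77 and 3.24 with TLA1, and that of Ccr8 to Ccr4 was 2.32 and 2.17 without and 1.75 and 1.50 with it. All 3 ratios separated the groups, where 48.1% of all tested genes taken singly did not overlap between groups. The 3 are built from the same 3 genes and are not independent, and the share among all gene pairs was not computed. The ratios were chosen after the values had been seen, and with 2 against 2 libraries an exact two-sided permutation test cannot go below p = 0.333, so they are given as a description.

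**Figure D3:**
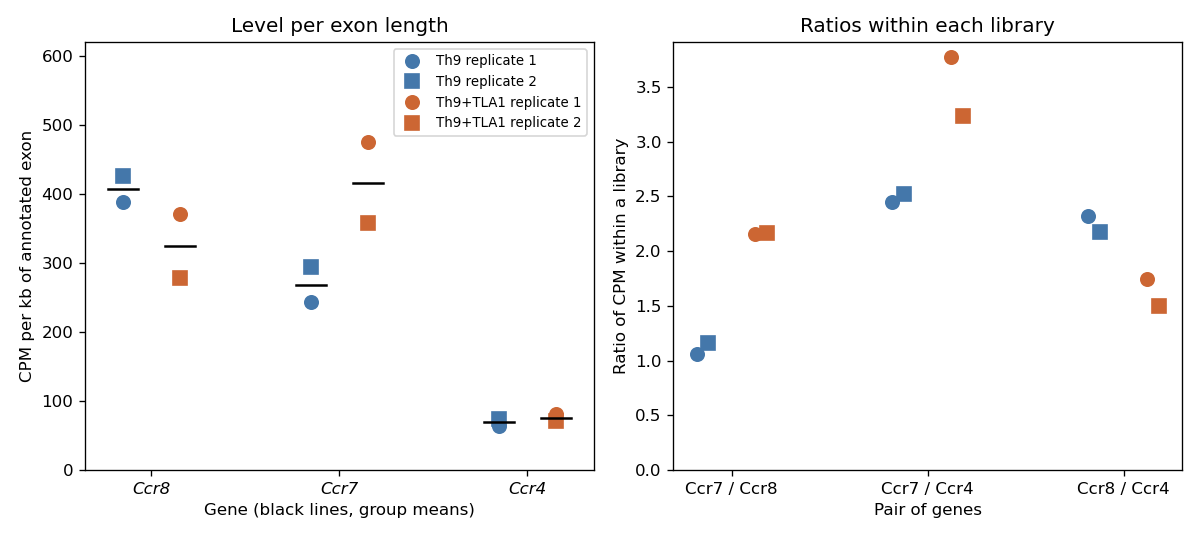
Left, level of Ccr8, Ccr7 and Ccr4 in CPM per kb of annotated exon in each library, with group means as black lines; right, ratio of the CPM of each pair of these genes within a library. Symbols and colours stand for the same libraries in both panels; the Ccr7 to Ccr8 ratio is 1.06 and 1.16 without TLA1 and 2.16 in each library with it.

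The CXC receptor genes were far less abundant. Cxcr4 (Entrez 12767, chromosome 1, 128588199 to 128592299), which encodes the receptor for CXCL12, had 3.22 and 7.89 CPM without TLA1 (13 and 25 reads) and 18.8 and 12.0 CPM with it (56 and 37 reads). The groups did not overlap, and the Th9 replicates differed 2.45-fold from each other. Its log2 fold change of 1.47 ± 0.57 (SE, 95% interval 0.22 to 2.72) did not pass (limma adjusted p = 0.233), and leaving out Th9 replicate 1 or Th9 replicate 2 gave 0.90 or 2.05 instead. Cxcl12 had 0 reads in every library.

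Cxcr3 (Entrez 12766, chromosome X, 101731535 to 101734147), the receptor gene of type 1 helper cells, had 7 reads in Th9 replicate 1, 0 in Th9 replicate 2, and 3 and 2 in the Th9+TLA1 libraries. It was under 3 reads in 2 libraries and at 3 in another. With reads pooled, its level with TLA1 was 0.850 of that without, with a 95% interval of 0.213 to 3.11 for counting error only. Only a large difference could have been seen at this depth. The ligand genes Cxcl9, Cxcl10 and Cxcl11 had 0 reads throughout. Cxcr6 (Entrez 80901, chromosome 9, 123806477 to 123811754), which encodes a receptor of effector and tissue T cells, had 3 and 10 reads without and 3 reads in each library with TLA1. Its pooled level with TLA1 was 0.549 of that without, with a 95% interval of 0.171 to 1.55 for counting error only. Its locus overlaps Fyco1 on the opposite strand, and the library kit does not mark strand, so reads of the 2 genes may not be told apart. Cxcl16, the gene of its ligand, had between 1 and 3 reads.

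Of the other 34 chemokine ligand genes, 26 had 0 reads in all 4 libraries and only Ccl27a and Cx3cl1 reached 10 reads in a library. Ccl27a had 15 and 8 reads without and 4 and 6 reads with TLA1. Of the other 17 receptor genes, 8 had 0 reads in all 4 libraries and 4 reached 10 reads. Cxcr2, known best as a receptor of neutrophils, had 0 and 5 reads without TLA1 and 35 and 15 reads with it (0, 1.58, 11.7 and 4.87 CPM), a log2 fold change of 2.47 ± 0.80 (SE) that did not pass (limma adjusted p = 0.160). It passed the filter only through the libraries with TLA1. The 5 markers of mast cells, basophils and granulocytes found in the files, Cpa3, Fcer1a, Mcpt8, S100a8 and S100a9, had 0 reads in all 4 libraries. Cx3cr1, the fractalkine receptor gene, had 6 and 16 reads without and 0 and 4 with TLA1, and Ccrl2, an atypical receptor gene, had 7 and 24 reads without and 21 and 8 with it. Among the 3 tested genes, Ccr6, Cxcr2 and Ccrl2, 0 were called by limma and by edgeR, and 1, Cxcr2, had an unadjusted limma p under 0.05 (16.7% of all tested genes).

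Signalling genes downstream of chemokine receptors differed widely in level, and each reached 10 reads in at least 1 library. All 36 listed genes were tested, 21 with a positive and 15 with a negative log2 fold change, and their median was 0.05 against -0.01 for all tested genes. Limma and edgeR called 0 of them (4 had an unadjusted limma p under 0.05, against 16.7% of all tested genes), and DESeq2 called 1 of 35, Pik3cg (3.23% of all genes to which it gave an adjusted p). The groups did not overlap in 6 genes above and 7 below with TLA1, where 48.1% of all tested genes did not overlap. Pik3cg, the catalytic subunit of the phosphoinositide 3-kinase that G protein-coupled receptors activate, had 153 and 248 CPM without and 61.8 and 115 CPM with TLA1. Its log2 fold change was -1.11 ± 0.31 (SE, limma adjusted p = 0.120; DESeq2 adjusted p = 0.02998). Rgs16 and Rgs3, which encode proteins that shorten G protein signals, had 40.3 and 16.1 against 12.4 and 11.0 CPM and 25.5 and 33.2 against 16.1 and 14.3 CPM. Tiam1, an activator of the small GTPase RAC, had 33.9 and 25.3 CPM without and 47.7 and 48.4 CPM with TLA1 (limma adjusted p = 0.222). These 4 genes were taken for having the largest absolute change of the list, and none was called by limma.

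**Figure D4:**
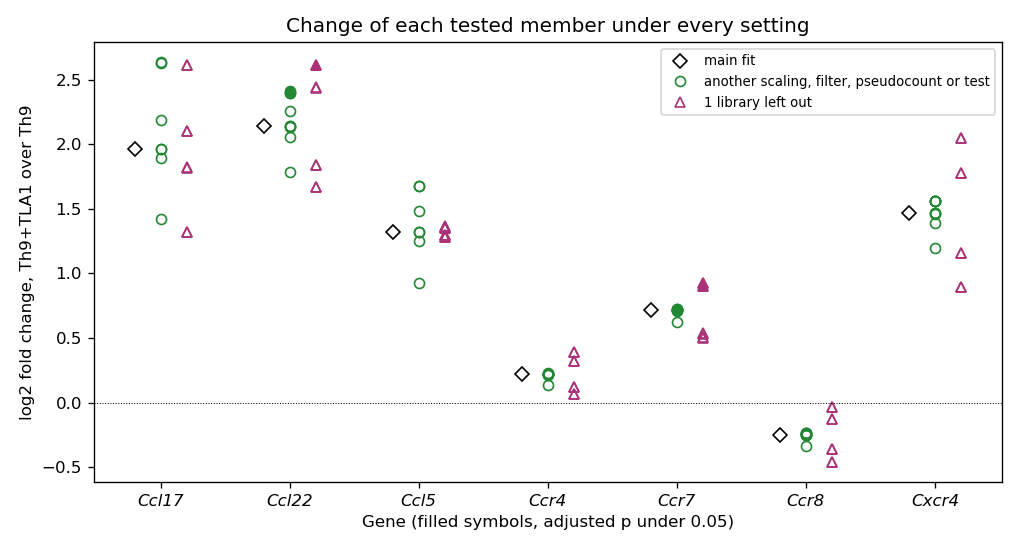
Log2 fold change of each tested member in the main limma fit (diamonds), with another scaling, filter, pseudocount or test (circles) and with 1 library left out (triangles); filled symbols passed an adjusted p under 0.05. Only Ccl22 and Ccr7 have filled symbols, and each gene keeps its sign under every setting shown.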

How the data were processed

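Gene expression was measured by RNA sequencing in 4 libraries of mouse T cells, 2 per group. Per the labels' protocols, cDNA was made with a SMARTer low-input kit, which does not mark strand, and sequenced on an Ion Torrent instrument. HTSeq 0.5.4, edgeR and the build mm10 are listed in the submitters' processing notes. Aligner and annotation were not given in the sources used here. Each file deposited by the authors holds the CPM of 1 library. All non-zero values (100%) were whole multiples of 1 read within a tolerance of 0.01 of a read, so whole reads were recovered. Amplified reads are not independent molecules, so floors and intervals cover counting error only. Replicates were not copies of each other (chi-square per degree of freedom 12.2 for Th9 and 7.54 for Th9+TLA1).

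Symbols came from RefSeq's GRCm38.p6 gene table (23383 of 23480 identifiers matched). Low genes were removed with filterByExpr (minimum count 10), and log2(CPM / TMM factor + 1) was fitted on the group with limma 3.58.1 (eBayes with a mean trend; R 4.3.3, edgeR 4.0.16, DESeq2 1.42.0). TMM factors lay between 0.964 and 1.06. EdgeR without a filter called 565 genes, and with the filter 110. The tests were also run on simulated data as a check of the code only, and no result here rests on that run. The members and gene lists were chosen with earlier results of these data known. The named genes were all members, their partners, other family genes with at least 10 reads in a library, and the 4 signalling and 4 homing genes with the largest absolute change. Genes named from marker lists beyond that were chosen after their values were seen. Alternatives were 13 planned settings and 5 added after seeing the data. Of 6 markers of granulocytes and related cells, Ly6g was not analysed here.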

Additional observations from a re-analysis of the deposited data

How the results depend on the processing

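Each tested member kept the sign of its log2 fold change under all alternatives run, and Ccl17, Ccl5, Ccr4, Ccr8 and Cxcr4 were called under none of them. Where the groups lie well apart, leaving out a library can hardly change the sign, so a kept sign adds no evidence for such genes. Ccl22 and Ccr7, not called in the main test, were called by DESeq2 (log2 fold changes of 2.42 and 0.72) and by edgeR without a filter (2.39 and 0.72). The cause of these differences was not tested. With 1 library left out, which leaves a single library assumed to vary like the other group, the log2 fold change lay between 1.67 and 2.61 for Ccl22 and between 0.50 and 0.93 for Ccr7. Ccl22 was then called without Th9+TLA1 replicate 2 (adjusted p = 0.0440) and Ccr7 without Th9 replicate 2 (0.0357), but neither was when the filter was run again on the other 3 libraries (0.0993 and 0.162).

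The number of called genes was 118 in the main test, 73 with total count scaling, 33 without a filter, 275 with DESeq2, 565 with edgeR without a filter, and between 19 and 312 with 1 library left out. On the same genes it was 31 without Th9 replicate 1, 312 without Th9 replicate 2, 61 without Th9+TLA1 replicate 1 and 233 without Th9+TLA1 replicate 2. With the filter run again these counts were 42, 19, 155 and 96. Replicate differences within the groups were not correlated across genes (correlation -0.01). With only 1 such difference per group this cannot settle whether the replicate numbers in the titles pair the libraries, and the labels do not say. With the replicate number as a block the count was 225, and Ccl22 was called (log2 fold change 2.14, adjusted p = 0.03995). Ccl20, Cxcr3 and Cxcr6 passed no filter and have no main value to compare, and the stricter filter removed Ccl17 and Ccl5. DESeq2 gave Ccl17 and Ccl5 no adjusted p. Depth limited all members below about 10 reads.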

Other observations

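Genes of homing and adhesion outside the chemokine system were tested as well, 15 of 15 listed. Of these 8 had a positive and 7 a negative log2 fold change, with a median of 0.02 against -0.01 for all tested genes. Limma, edgeR and DESeq2 called 0 of them, and 3 had an unadjusted limma p under 0.05 (16.7% of all tested genes). Gpr15, a receptor gene of T cells that enter the large intestine, had 3.96 and 13.9 CPM without and 15.8 and 19.1 CPM with TLA1, which limma did not call (log2 fold change 1.18 ± 0.58 SE, adjusted p = 0.334). S1pr4, a receptor gene for sphingosine 1-phosphate, had 8.41 and 8.21 CPM without and 21.1 and 10.7 CPM with TLA1. Itga4, an integrin chain gene, had 18.3 and 15.5 CPM without and 12.4 and 4.87 CPM with it. Itgae, which encodes the integrin chain CD103, had 29, 4, 28 and 9 reads, high in replicate 1 of both groups and low in replicate 2.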
